A study of Mus musculus with 6 samples.

Results

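The CDK inhibitors were examined in mouse microvascular endothelial cells that did or did not overexpress the extracellular superoxide dismutase SOD3. The set was defined by gene name and holds the 8 genes *Cdkn1a*, *Cdkn1b*, *Cdkn1c*, *Cdkn2a*, *Cdkn2b*, *Cdkn2c*, *Cdkn2d* and *Cdkn3*. It was chosen because *Cdkn2a* and *Cdkn1a* were strongly lower in the SOD3 cells, so the differences of these 2 genes are given as a description, without a test. The 8 genes were measured by 11 of the 55681 probes and by 20 of the 59305 non-control spots of the array. RNA came from the 1G11 line, of C57BL/6NCrLBR origin, as 1G11-mock cells (no SOD3 overexpression, n = 3) and 1G11-SOD3 cells (SOD3 overexpression, n = 3). Both had spent 6 h in medium conditioned by N202.1A murine mammary cancer cells, and the labels describe the samples of each line as biological replicates. Neither unmodified 1G11 cells nor cells without conditioned medium are among the samples, and whether each line is 1 clone is not given in the sources used here. Each sample was hybridized to a single-color Agilent array, and a probe was called higher or lower when it differed by more than 2-fold with an adjusted p under 0.05 (limma, Benjamini-Hochberg over all 55681 probes).

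CDK inhibitors are small proteins that bind cyclin-dependent kinases (CDKs), the enzymes that carry a cell from one phase of its division cycle to the next. The INK4 members bind CDK4 and CDK6 and keep them from cyclin D, whereas the CIP/KIP members bind whole complexes, mainly those of cyclin E or cyclin A with CDK2. Active CDKs phosphorylate the retinoblastoma protein and so release E2F factors, which drive genes of DNA synthesis. *Cdkn2a* encodes, from 2 start sites and 2 reading frames, the INK4 inhibitor p16INK4a and the unrelated protein p19ARF, which restrains MDM2 and thereby stabilizes p53. *Cdkn1a* encodes the CIP/KIP inhibitor p21, a classical target of p53. *Cdkn2a* and *Cdkn1a* rise with senescence and with prolonged culture of many cell types.

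Between 34.2% and 43.8% of the spots were well above background on an array, and none was saturated. *Sod3* itself was higher in the 1G11-SOD3 cells on 3 of 3 arrays, by 4.27 on the log2 scale (SE 0.70, adjusted p = 0.00786). Its spot is in the central part of the array, rows 129 to 256 and columns 55 to 109, called the middle here, where the 1G11-mock arrays were dim. Of the probes that lie wholly in the middle, 11.6% were called higher in 1G11-SOD3 cells, against 0.644% of those wholly outside it. Among 121 probes with copies in both places, the difference between the lines was larger in the middle, with a median excess of 1.40 (log2). A position adjustment, in which a smooth surface over rows and columns was removed from each array, brought this to 0.20 and took *Sod3* to 2.50 (adjusted p = 0.0214). Of the 20 spots of CDK inhibitors, 1 lay in the middle, that of *Cdkn2c*. The slide held the 1G11-mock samples in its row 2 and the 1G11-SOD3 samples in its row 1, so that slide row and cell line cannot be told apart.

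The probes and start sites of the 2 genes that fell most are shown first, since they define what was measured. The array carries 2 probes of 60 bases for *Cdkn2a*, which its annotation places on the minus strand of chromosome 4, and 2 for *Cdkn1a*, on the plus strand of chromosome 17. Both *Cdkn2a* probes were designed on the same transcript of the gene. The build of that annotation and the exon of each probe are not given in the files, and the files do not say whether the 2 *Cdkn2a* probes see the p16INK4a transcript, the p19ARF transcript or both. The first 30 bases of each probe are as follows.
Cdkn2a probe 1 (chromosome 4, 88920405 to 88920464): ggcatgagaaactgagcgaaggcggccgcg
Cdkn2a probe 2 (chromosome 4, 88920543 to 88920602): cttctagcgatgctagcgtgtctagcatgt
Cdkn1a probe 1 (chromosome 17, 29237377 to 29237436): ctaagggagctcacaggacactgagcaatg
Cdkn1a probe 2 (chromosome 17, 29227986 to 29228045): aatggagacagagaccccagataattaagg

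RefSeq (GRCm38.p6) lists 2 start sites for *Cdkn2a* and 2 for *Cdkn1a*, and the 250 bases before each are printed because these are the inhibitors that fell. Since the build of the probe positions above is not given, no distance between a probe and a start can be read from these coordinates. Of the CDK inhibitors, *Cdkn1c* had no entry in the promoter table. Capitals mark matches to the motifs searched, on either strand.
Cdkn2a, upstream start (chr4:89294620-89294869, minus strand): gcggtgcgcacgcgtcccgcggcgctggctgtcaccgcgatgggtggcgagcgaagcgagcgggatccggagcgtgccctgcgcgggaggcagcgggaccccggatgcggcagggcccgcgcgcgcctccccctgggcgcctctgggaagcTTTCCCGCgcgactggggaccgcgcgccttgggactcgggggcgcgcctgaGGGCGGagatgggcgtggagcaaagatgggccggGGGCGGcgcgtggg
Cdkn2a, downstream start (chr4:89282193-89282442, minus strand): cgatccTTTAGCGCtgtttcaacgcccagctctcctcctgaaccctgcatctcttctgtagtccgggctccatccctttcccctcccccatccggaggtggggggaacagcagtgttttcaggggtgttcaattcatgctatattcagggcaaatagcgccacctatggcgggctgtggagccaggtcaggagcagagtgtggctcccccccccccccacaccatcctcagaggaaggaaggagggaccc
Cdkn1a, upstream start (chr17:29090729-29090978, plus strand): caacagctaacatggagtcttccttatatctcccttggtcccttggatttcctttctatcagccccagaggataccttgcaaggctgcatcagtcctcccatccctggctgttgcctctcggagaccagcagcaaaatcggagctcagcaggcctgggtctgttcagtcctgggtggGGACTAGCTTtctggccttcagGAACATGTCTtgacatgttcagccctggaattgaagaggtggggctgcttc
Cdkn1a, downstream start (chr17:29093519-29093768, plus strand): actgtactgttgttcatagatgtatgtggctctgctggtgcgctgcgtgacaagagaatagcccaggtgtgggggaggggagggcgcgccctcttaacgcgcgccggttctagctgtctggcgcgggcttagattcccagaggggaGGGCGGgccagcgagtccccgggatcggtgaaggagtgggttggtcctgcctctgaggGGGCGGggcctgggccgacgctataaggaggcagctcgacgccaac
The motifs were the GC box GGGCGG (found before 32.7% of the 32851 start sites in the table), the TATA box TATAAA (12.4%), the E-box CACGTG (6.02%), the AP-1 site TGANTCA (6.75%), the E2F site TTTNNCGC (4.28%), the FOXO site GTAAACA (3.17%), the NF-κB site (7.25%) and the p53 half-site (7.13%). The upstream *Cdkn2a* start, by its order that of p19ARF, had an E2F match 99 bases before it and GC boxes 48 and 14 bases before it. The downstream *Cdkn2a* start had 1 E2F match, 244 bases before it. The upstream *Cdkn1a* start had 2 p53 half-sites, 73 and 51 bases before it, whereas the downstream *Cdkn1a* start had GC boxes at 104 and 46 bases. The GC box was the motif of this list that both genes held, before 1 start of each, and the TATA box, E-box, AP-1, FOXO and NF-κB letters were in none of the 4 windows, from which nothing follows about the factors. No match overlapped another in these 4 windows.

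*Cdkn2a* was the CDK inhibitor with the largest difference between the lines. The log2 intensity of its probe 1 was 13.31, 13.30 and 12.61 in 1G11-mock cells (replicates 1, 2 and 3) and 9.04, 9.12 and 8.98 in 1G11-SOD3 cells. The lowest mock array thus stood 3.49 above the highest SOD3 array, and the SOD3 arrays lay within 0.14 of each other. The difference (1G11-SOD3 minus 1G11-mock) was -4.03 on the log2 scale (SE 0.25), a 16.3-fold lower signal, and it ranked 5 among all probes counted from the lowest. Probe 2 gave 9.12, 9.33 and 8.79 in 1G11-mock cells and 7.38, 7.27 and 7.06 in 1G11-SOD3 cells. It was well above background on 3 of 3 mock arrays and on 0 of 3 SOD3 arrays. Set against a floor, its signal was 2.87-fold lower in 1G11-SOD3 cells with this normalization. The floor was, on each SOD3 array, the higher of the lowest signal well above background and the signal of the probe itself. This value is not a lower limit over other ways of processing, some of which gave a smaller difference. The 2 probes fell together, and no array of one line overlapped the other line on either. Their measured size depended on how dim signals were treated: the log2 difference of probe 2 was -1.84 here, -1.22 without background correction and -4.02 with the processed signal of the scanner software. Probe 1 ran only from -4.19 to -3.61 over the alternatives with all 6 arrays.

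**Figure D1:**
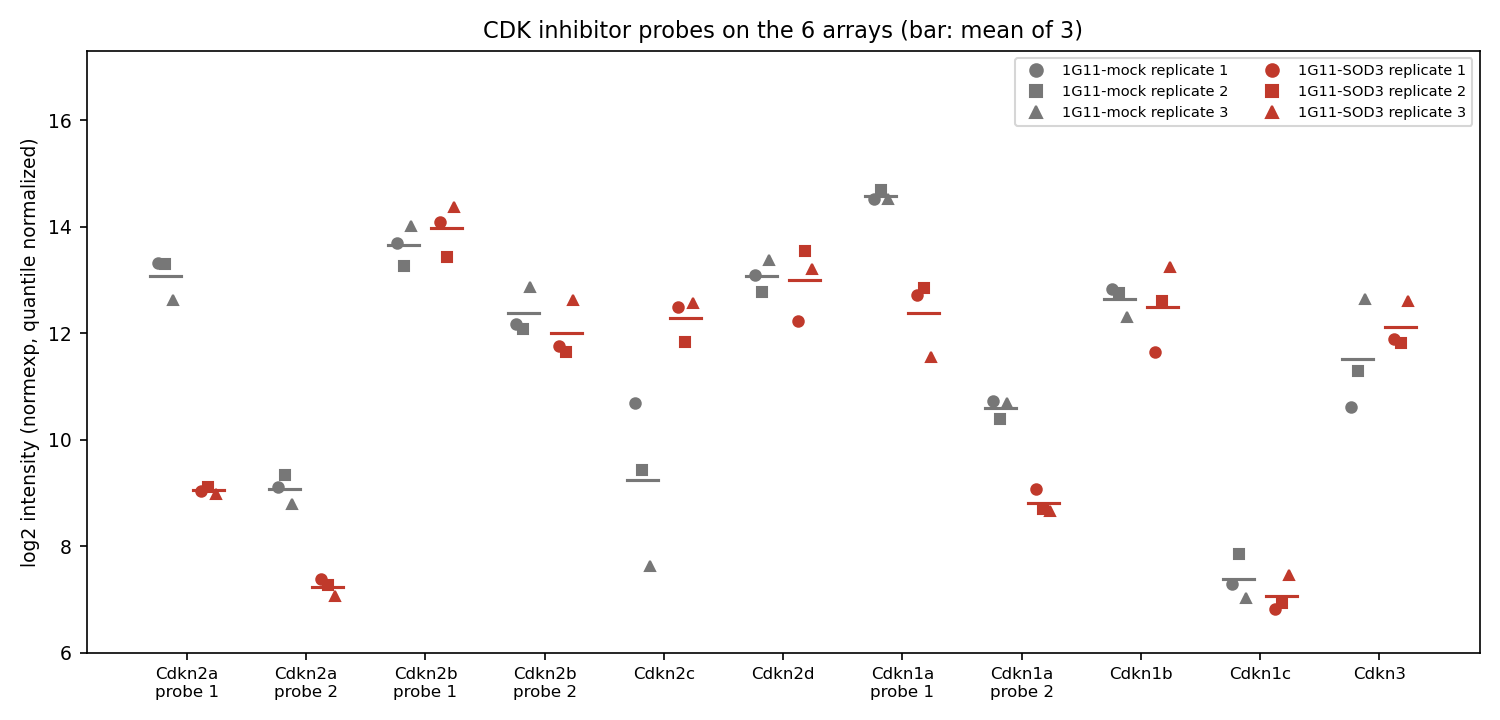
Log2 intensity of the 11 CDK inhibitor probes on the 6 arrays, with 1G11-mock in gray, 1G11-SOD3 in red, marker shapes for replicates 1 to 3 and bars for the mean of 3 arrays. Both *Cdkn2a* and both *Cdkn1a* probes were lower on every 1G11-SOD3 array than on any 1G11-mock array, *Cdkn2c* (in the middle of the array) was higher, and the other 6 probes overlapped between the lines.

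*Cdkn2b*, the neighbor of *Cdkn2a*, encodes the INK4 inhibitor p15INK4b and is often silenced together with it. In the array annotation the nearest probes of the 2 genes are 31673 bases apart. Its probe 1 gave 13.68, 13.26 and 14.02 in 1G11-mock cells and 14.09, 13.44 and 14.37 in 1G11-SOD3 cells, and its probe 2 gave 12.17, 12.08 and 12.87 against 11.76, 11.65 and 12.62. The lines overlapped on both probes, and the probes differed in sign, with a log2 difference of 0.31 for probe 1 (95% interval -0.33 to 0.96, adjusted p = 0.692) and of -0.36 for probe 2 (-1.05 to 0.33, adjusted p = 0.663). Neither interval reached a decrease of the size seen at *Cdkn2a*. Replicate 3 was the brightest of its line on both probes in both lines.

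The other INK4 genes were *Cdkn2c* (p18INK4c) and *Cdkn2d* (p19INK4d). The *Cdkn2c* probe is reported apart because its single spot is in the middle. It gave 10.68, 9.43 and 7.63 in 1G11-mock cells, where it was well above background on 2 of 3 arrays, and 12.48, 11.83 and 12.56 in 1G11-SOD3 cells. It was called higher, by 3.04 on the log2 scale (SE 0.58, adjusted p = 0.0175), with the mock arrays spread over 3.05 and the SOD3 arrays over 0.73. The fitted surface alone differed between the lines by 2.37 at this spot. After position adjustment the values were 10.98, 10.37 and 9.56 against 11.43, 11.28 and 11.25, and the difference of 1.02 (95% interval 0.29 to 1.75, adjusted p = 0.105) was no longer called. The call was also lost without 1G11-mock replicate 2 (adjusted p = 0.0792), 1G11-SOD3 replicate 1 (0.0628) or 1G11-SOD3 replicate 3 (0.0876). *Cdkn2d*, outside the middle, ranged from 12.77 to 13.37 in the mock line and from 12.23 to 13.54 in the SOD3 line, so that the mock arrays lay within the SOD3 range. Its difference was -0.084 (95% interval -0.81 to 0.64, adjusted p = 0.941).

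*Cdkn1a* was the CIP/KIP member that fell. Its probe 1, averaged over copies, gave 14.51, 14.69 and 14.53 in 1G11-mock cells and 12.71, 12.85 and 11.55 in 1G11-SOD3 cells. The mock arrays lay within 0.17 of each other, and replicate 3 stood below the other 2 SOD3 arrays, yet the nearest arrays of the lines were 1.66 apart. The log2 difference was -2.20 (SE 0.32), a 4.61-fold lower signal. Without 1G11-SOD3 replicate 3 it was -1.81. Probe 2 gave 10.72, 10.38 and 10.68 against 9.07, 8.71 and 8.66, a difference of -1.78 (SE 0.23) or 3.44-fold, and here replicate 3 did not stand apart. In the array annotation probe 2 lies nearer to the start of the gene than probe 1 and was designed on another transcript of *Cdkn1a*.

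Probe 1 of *Cdkn1a* has 10 copies spread over the array, so the fall could be read repeatedly on each array. All 10 copies lay outside the middle, and on 10 of 10 copies every 1G11-mock array was brighter than every 1G11-SOD3 array. The log2 difference of the copies ran from -2.59 to -1.56 with a median of -2.35 (SD 0.38 among copies, which share the 6 RNA samples and are not replicates). The 2 copies with the smallest fall, -1.62 (row 238, column 54) and -1.56 (row 293, column 91), were those with the largest difference of the fitted surface, 0.68 and 0.80. After position adjustment the copies ran from -2.34 to -1.88, with an SD of 0.18. 1G11-SOD3 replicate 3 was the dimmest array on each of the 10 copies.

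**Figure D2:**
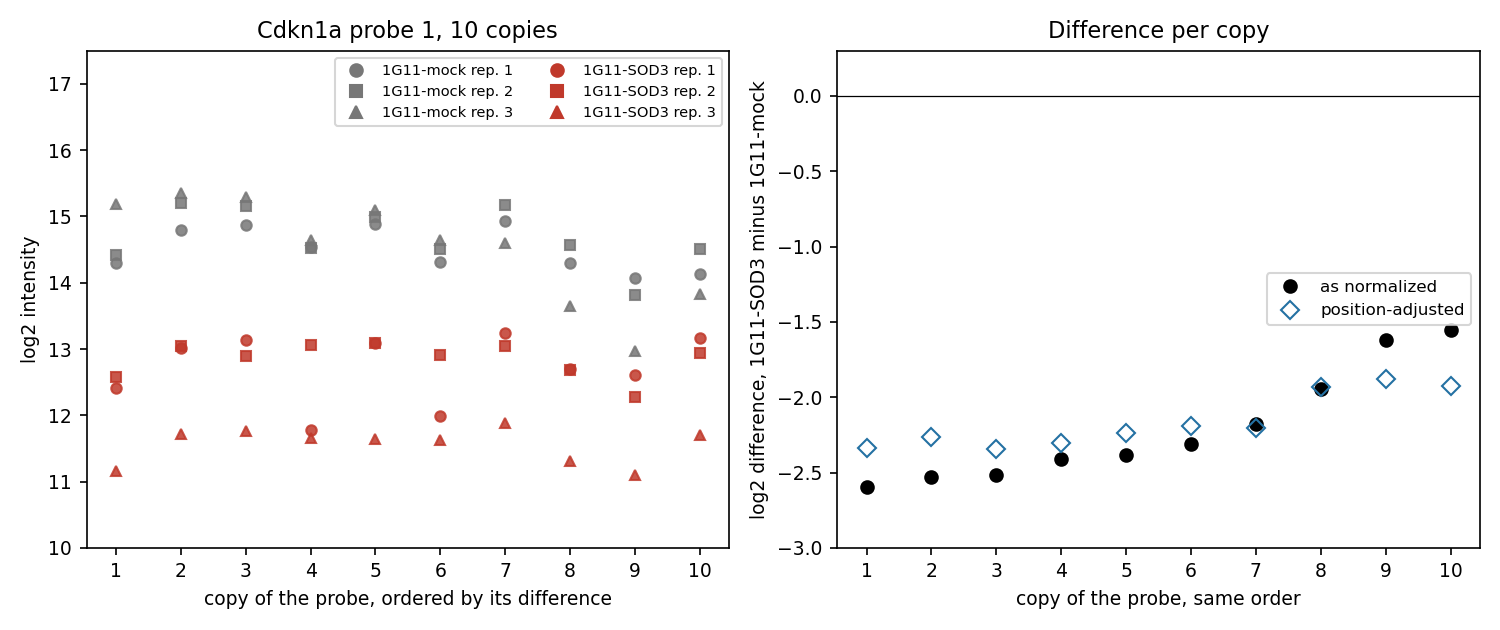
Left, log2 intensity of the 10 copies of *Cdkn1a* probe 1 on each array (gray, 1G11-mock; red, 1G11-SOD3; shapes, replicates), ordered by difference; right, the log2 difference between the line means for each copy before (circles) and after (diamonds) position adjustment. The mock and SOD3 arrays stayed apart on all 10 copies, and adjustment narrowed the differences from -2.59 to -1.56 to -2.34 to -1.88.

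*Cdkn1b*, which encodes the CIP/KIP inhibitor p27, did not move with *Cdkn1a*. It gave 12.84, 12.75 and 12.31 in 1G11-mock cells and 11.65, 12.60 and 13.24 in 1G11-SOD3 cells. The SOD3 arrays spread over 1.60 and spanned all mock arrays, and the difference was -0.14 (95% interval -0.92 to 0.65, adjusted p = 0.907). Its sign turned without 1G11-SOD3 replicate 1 (0.29). *Cdkn1c*, which encodes p57, was not well above background on any of the 6 arrays, where its log2 intensity ranged from 6.82 to 7.85, so that no difference could be given. *Cdkn3* encodes a phosphatase that acts on CDK2 and is itself made mostly in dividing cells. It ranged from 10.61 to 12.64 in the mock line and from 11.82 to 12.61 in the SOD3 line, a difference of 0.60 (95% interval -0.36 to 1.56, adjusted p = 0.596), with the SOD3 arrays within the mock range.

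Of the 10 CDK inhibitor probes outside the middle, 4 were called lower and 0 higher (limma), and the 4 were those of *Cdkn2a* and *Cdkn1a*. Of all probes wholly outside the middle 1.18% were called lower, and 11.4% were lower without overlap between the lines. Of all probes 1.06% were called lower and 1.87% higher, and the lines did not overlap in 20.6%. Nothing is read from the comparison, because the fall of these 2 genes chose the set. The 4 probes remained the ones called lower under the alternatives run and with each array left out in turn. With position adjustment, under which 3.44% of all probes were called lower, the log2 differences were -3.61 and -1.42 for the *Cdkn2a* probes and -2.16 and -1.92 for the *Cdkn1a* probes. Among the 6 genes that were not chosen by their own values, *Cdkn2c* was the 1 with a call.

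**Figure D3:**
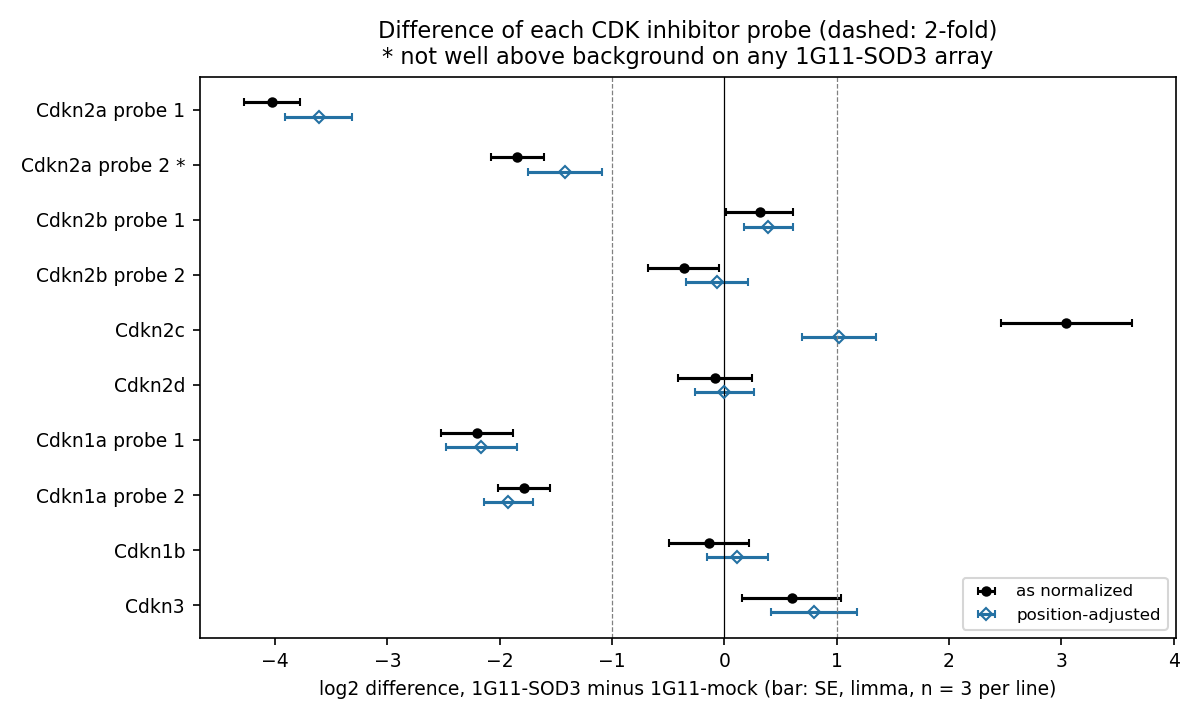
Log2 difference (1G11-SOD3 minus 1G11-mock) of the 10 CDK inhibitor probes that were above background on some array, as normalized (circles) and position-adjusted (diamonds), with SE bars from limma. The *Cdkn2a* and *Cdkn1a* probes stayed below the 2-fold line at -1 either way, *Cdkn2c* moved from 3.04 to 1.02, and the others lay between the 2-fold lines.

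Genes of the pathways around the CDK inhibitors were taken from lists, each gene by its brightest probe. Of 22225 genes so counted 2.95% were called higher and 1.73% lower, and among the 19577 with that probe outside the middle 1.2% and 1.94%. Of the 139 listed genes 14 were higher and 5 lower, and of the 120 outside the middle 4 were higher and 5 lower. At an unadjusted p under 0.05 there were 57 of the 139 listed genes and 4244 of all 22225. Of all 22225 genes 9223 were well above background on no array, against 14 of the 139 listed. The shares over all genes given beside the lists are therefore not matched for signal. The median log2 difference of all genes was -0.033. The median of 7 of the 13 lists changed sign when an array was left out, while those of the E2F target, mitosis, pocket protein and p53 target genes were among the other 6, which kept theirs.

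Among the partners of the INK4 inhibitors, 1 of 5 genes was called. *Ccnd1*, encoding cyclin D1, was higher by 2.69 (SE 0.60, adjusted p = 0.0361), but its spot lies in the middle, and its difference after position adjustment was 0.81 (adjusted p = 0.291). The call was also lost without 1G11-mock replicate 2 (adjusted p = 0.166), 1G11-mock replicate 3 (0.128), 1G11-SOD3 replicate 1 (0.131), 1G11-SOD3 replicate 2 (0.0518) or 1G11-SOD3 replicate 3 (0.119). The other cyclins D and their kinases were outside the middle and were not called. *Ccnd2* differed by -0.17, *Ccnd3* by 0.57, *Cdk4* by -0.29 and *Cdk6* by -0.45, with adjusted p from 0.316 to 0.783.

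Of the 8 partners of the CIP/KIP inhibitors 0 were called (limma), and 3 had an unadjusted p under 0.05, all higher. *Ccna2* and *Cdk1*, named after their values were seen, narrowly missed the call, both without overlap between the lines. *Ccna2* differed by 0.97 (adjusted p = 0.0340), short of 2-fold, and *Cdk1* by 1.24 (adjusted p = 0.0503). With position adjustment they were at 0.59 (adjusted p = 0.182) and 0.84 (adjusted p = 0.158). *Ccne1*, encoding cyclin E1, differed by 1.12 (adjusted p = 0.0955) on its brightest probe and was called higher with position adjustment (1.40, adjusted p = 0.0158) and without 1G11-mock replicate 3 (1.42, adjusted p = 0.0422), while its other probe was called as normalized. *Ccnb1* differed by 0.13 (adjusted p = 0.890) on its brightest probe, and 1 of its other 2 probes was called. *Cdk2* differed by 0.040 (adjusted p = 0.972). The median of the 8 genes was 0.24, but -0.0187 without 1G11-mock replicate 1 and 0.53 without 1G11-mock replicate 3. It was 0.66 for the 6 genes wholly outside the middle. With scaling to the 75th percentile 3 of the 8 were called higher, with cyclic loess 2 and without 1G11-mock replicate 3 also 2.

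The retinoblastoma protein gene *Rb1*, on a probe printed 10 times outside the middle, differed by -0.59 (adjusted p = 0.251). Of the 13 pocket proteins and E2F factors 1 was called, *E2f1*, an activating E2F factor, which was higher by 2.64 (SE 0.34, adjusted p = 0.00212). Its spot lies in the middle, and the position-adjusted difference of 1.29 (adjusted p = 0.0151) was still called. The median of this list was 0.45, against 0.18 for its 11 genes outside the middle and 0.29 for the whole list with position adjustment.

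E2F target genes of DNA synthesis had more calls toward higher levels than any other of these pathway lists. 6 of 16 were called higher and 0 lower, the median was 0.88, and 16 of 16 genes had a difference above 0, against 46.7% of all genes. 4 of the 6 lay outside the middle, of 14 such genes. *Mcm4*, a subunit of the replicative helicase, gave 2.07 (SE 0.28, adjusted p = 0.00266), and *Gins1*, of the GINS complex that joins it, 1.95 (SE 0.25, adjusted p = 0.00198). *Mcm2* (1.36) and *Rrm2* (1.29), a ribonucleotide reductase subunit, were the other 2, named after their values were seen. In the middle, *Rrm1* (2.61) and *Mcm7* (2.05) fell short of the call with position adjustment, at 1.09 (adjusted p = 0.0891) and 0.86 (adjusted p = 0.0783). With position adjustment, which called 1.93% of all genes higher and 3.13% lower, 5 of the 16 genes were called higher, all of them outside the middle. They were *Mcm2*, *Mcm4* and *Gins1* with *Cdc45* (1.18, adjusted p = 0.0116) and *Cdc6* (1.31, adjusted p = 0.0188), whereas *Rrm2* was not called (0.96, adjusted p = 0.0502). The count outside the middle was 2 without 1G11-mock replicate 2, 1G11-SOD3 replicate 1 or 1G11-SOD3 replicate 2, 3 without 1G11-mock replicate 1, and 5 without 1G11-mock replicate 3 or 1G11-SOD3 replicate 3. The *Rrm1* call was lost without 1G11-mock replicate 2 (adjusted p = 0.0909), 1G11-SOD3 replicate 1 (0.107) or 1G11-SOD3 replicate 3 (0.118).

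Of 12 mitosis genes 3 were called higher and 0 lower, and all 3 spots lie in the middle. *Bub1b*, of the spindle checkpoint, gave 2.67, *Birc5*, encoding survivin, 2.19 (its other 2 probes were not called) and *Ccnf*, encoding cyclin F, 1.34. With position adjustment *Birc5* (1.22, adjusted p = 0.0210) and *Ccnf* (1.22, adjusted p = 0.0254) were still called and *Bub1b* (1.13, adjusted p = 0.0571) was not. The *Ccnf* call was lost without 1G11-mock replicate 2 (adjusted p = 0.102), 1G11-mock replicate 3 (0.0709), 1G11-SOD3 replicate 1 (0.100) or 1G11-SOD3 replicate 2 (0.0533). Of the 9 mitosis genes outside the middle 0 were called (limma) and 1 had an unadjusted p under 0.05, and the median of the whole list was 0.43. Of the 8 genes for the CDK activating kinase, CDC25 phosphatases and WEE1 kinases 0 were called (limma) and 1 had an unadjusted p under 0.05, with a median of 0.10. Of the 8 genes for inhibitor turnover *Skp2*, whose product marks p27 for destruction, was called higher (1.83, adjusted p = 0.00172), in the middle, and was at 0.52 (adjusted p = 0.217) with position adjustment.

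The genes on which p19ARF acts were not called. *Mdm2*, encoding the ubiquitin ligase that degrades p53 and itself a p53 target, differed by -1.42 (SE 0.38, adjusted p = 0.0751) without overlap between the lines, and was called lower with position adjustment (-1.18, adjusted p = 0.0174). *Trp53*, encoding p53, differed by 0.35 (adjusted p = 0.684). Of the 7 genes of the ARF-MDM2-p53 axis 0 were called (limma) and 3 had an unadjusted p under 0.05, all lower. Their median was -0.33, but 0.0945 without 1G11-SOD3 replicate 1 and -0.0608 when the probes of each gene were averaged.

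Of the 16 p53 target genes other than *Cdkn1a*, 4 were called lower and 0 higher, all 4 outside the middle, the median was -0.81, and 13 of 16 genes had a difference below 0, against 53.3% of all genes. *Btg2*, an antiproliferative gene, fell by 2.13 on the log2 scale (SE 0.39, adjusted p = 0.0132), and *Trp53inp1*, encoding a p53 cofactor, fell by 1.83 (SE 0.33, adjusted p = 0.0135). *Plk2*, a polo-like kinase, fell by 1.35 (adjusted p = 0.0248), and *Sesn2*, encoding sestrin 2, fell by 1.14 (adjusted p = 0.0186). With position adjustment the median of the 16 genes was -0.49, against 0.058 over all genes. 2 of the 16 were then called, *Btg2* (-1.73, adjusted p = 0.00463) and *Trp53inp1* (-1.38, adjusted p = 0.0388), whereas *Plk2* was at -0.69 and *Sesn2* at -0.93. The count changed with the arrays, being 1 without 1G11-mock replicate 2 or 1G11-mock replicate 3, 2 without 1G11-SOD3 replicate 1 or 1G11-SOD3 replicate 3, 3 without 1G11-SOD3 replicate 2 and 5 without 1G11-mock replicate 1. Leaving out 1G11-mock replicate 2 gave *Btg2* an adjusted p of 0.0679, and leaving out 1G11-mock replicate 3 one of 0.0562, so that it was not called in either case. The call of *Trp53inp1*, whose other probe was not called, was lost without these or without 1G11-SOD3 replicate 1 (adjusted p from 0.0530 to 0.0608). That of *Plk2* was lost without 1G11-mock replicate 3 or any one of the SOD3 arrays (adjusted p from 0.0574 to 0.0995), and that of *Sesn2* without 1G11-mock replicate 2, 1G11-SOD3 replicate 1 or 1G11-SOD3 replicate 3 (adjusted p from 0.0718 to 0.0901).

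**Figure D4:**
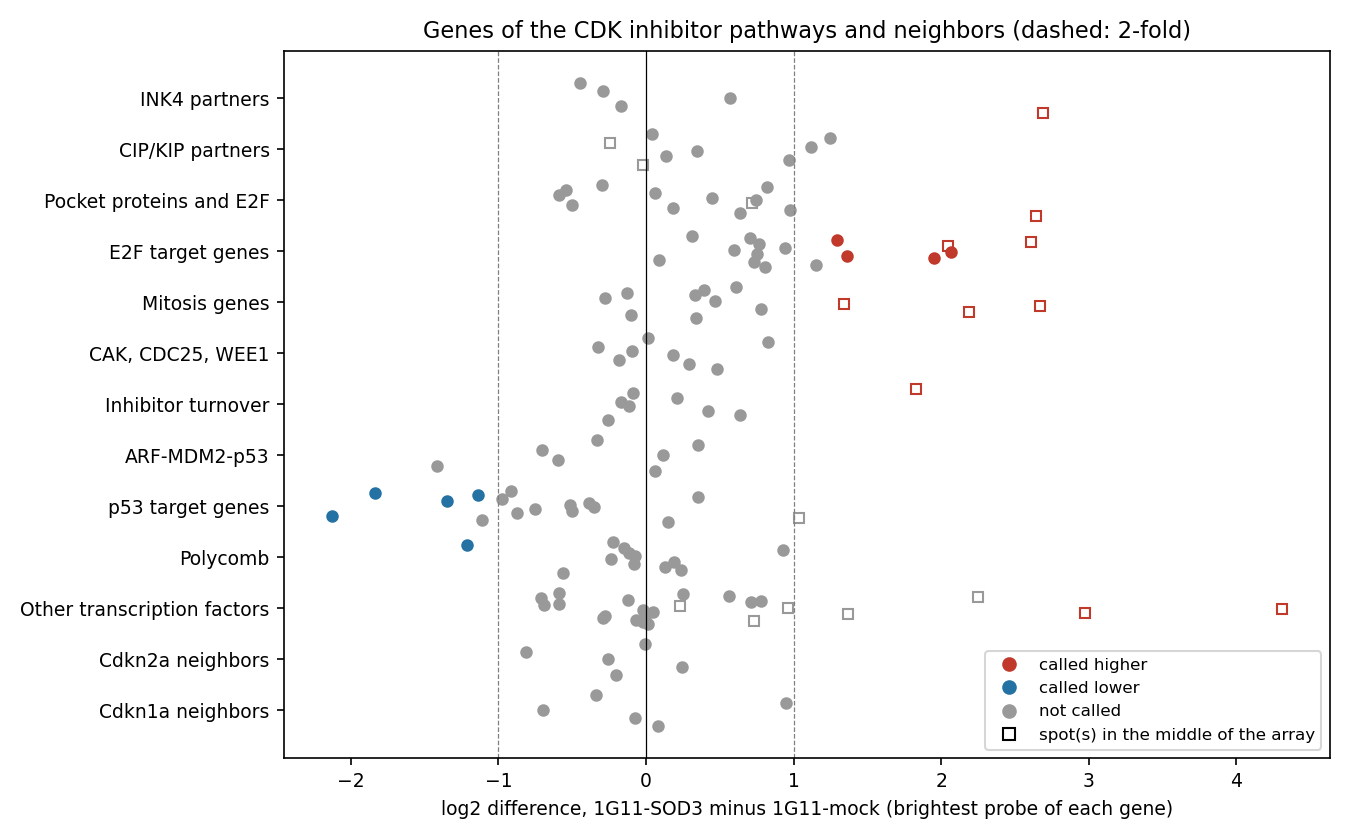
Log2 difference (1G11-SOD3 minus 1G11-mock) of each listed gene by its brightest probe, one row per list, with genes called higher in red, called lower in blue, not called in gray, and open squares for genes with spots in the middle of the array. E2F target genes lay to the right of 0 (median 0.88) and p53 target genes mostly to the left (median -0.81), and 10 of the 14 genes called higher had a spot in the middle.

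Among regulators of the *Cdkn2a* locus, 1 of 12 Polycomb genes was called. *Rnf2*, encoding the ubiquitin ligase RING1B, fell by 1.21 (SE 0.29, adjusted p = 0.0452), and this call was lost without 1G11-mock replicate 1 (adjusted p = 0.0949), 1G11-mock replicate 3 (0.119), 1G11-SOD3 replicate 1 (0.125), 1G11-SOD3 replicate 2 (0.148) or 1G11-SOD3 replicate 3 (0.127) and with position adjustment (-0.55, adjusted p = 0.247). The median of these genes was -0.10. Of 24 other transcription factors *Jun*, of AP-1, was higher by 4.31 (adjusted p = 0.00306) and *Id2*, an inhibitor of E proteins, by 2.98 (adjusted p = 0.00736). Both spots lie in the middle. *Jun* was still called with position adjustment (2.21, adjusted p = 0.00883) and *Id2* was not (0.98, adjusted p = 0.126), nor was *Id2* without 1G11-SOD3 replicate 3 (adjusted p = 0.0514). Of the 17 of these factors outside the middle 0 were called (limma), and 5 had an unadjusted p under 0.05.

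Of 5 neighbors of *Cdkn2a* and *Cdkn2b*, 3 (*Dmrta1*, *Elavl2* and *Ifne*) were well above background on no array, so that no difference could be given for them. *Mtap*, which lies next to *Cdkn2a* on the side away from *Cdkn2b*, differed by -0.0058 (adjusted p = 0.997). *Klhl9* differed by -0.81 (adjusted p = 0.293) and was the 1 gene at an unadjusted p under 0.05. The 5 had a median of -0.20, with 0 called (limma). Of 5 neighbors of *Cdkn1a* 0 were called and 2 had an unadjusted p under 0.05, 1 higher and 1 lower, and the median was -0.075. The lower of these 2, *Rab44*, was well above background on no array. The higher, *Srsf3*, named after its value was seen, differed by 0.95 (adjusted p = 0.0372) without overlap, short of 2-fold. With position adjustment *Srsf3* was at 0.88 (adjusted p = 0.0440). Using the deposited table, median pixel intensity or cyclic loess, 1 neighbor was called higher. Scaling to the 75th percentile gave 1 higher and 1 lower, and the processed signal gave 1 lower.

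The genes with array profiles closest to those of the 2 fallen inhibitors were sought among 12677 probes by the root mean square (RMS) difference of log2 values over the 6 arrays, each probe centered on its mean. Closest to *Cdkn2a* probe 1 were *Capn9* (RMS 0.37), *Trp53i11* (0.40), *Cib3* (0.40), *Gkn2* (0.40) and *Muc5b* (0.48). *Capn9* gave 15.05, 14.77 and 14.31 in 1G11-mock cells and 10.61, 10.72 and 9.64 in 1G11-SOD3 cells. Closest to *Cdkn1a* probe 1 were *C1qtnf5* (0.21), *Ass1* (0.23), *Ifi44* (0.23), *Oas3* (0.23) and *Tbc1d2* (0.24). *Ass1* gave 13.01, 13.49 and 12.98 against 11.63, 11.84 and 10.60, with 1G11-SOD3 replicate 3 the lowest, as at *Cdkn1a*. The likeness rests on the same 6 arrays and mainly on the difference between the lines.

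The identity of the cells was checked by 4 marker lists, and the summed level of 2 of them, the endothelial and the fibroblast and mural markers, did not overlap between the lines. Of 14 endothelial markers 4 were well above background on all 6 arrays, *Kdr*, *Eng* and *Vwf* among them, and 6 on none (*Cdh5*, *Emcn*, *Erg*, *Robo4*, *Tek* and *Tie1*). RNA of the defining marker *Cdh5*, encoding VE-cadherin, was thus not detected here, on its 1 probe. The paper that reported these data states that the line was regularly stained for VE-cadherin to check its endothelial origin. The summed level of the 14 endothelial markers was 14.49 to 14.90 (log2) on mock and 14.04 to 14.35 on SOD3 arrays, lower on each of the latter. Most of this sum came from *Eng* and *Kdr*. Over the 14 markers the median difference was 0.041, with 8 above 0 and 6 below. *Esam* (1.22) and *Flt1* (1.07), both with spots in the middle, were not called. *Vwf*, encoding von Willebrand factor, was called lower in 1G11-SOD3 cells (-1.65, adjusted p = 0.00342), also with position adjustment (-1.35, adjusted p = 0.0306). *Eng*, encoding endoglin, differed by -1.05 without overlap (adjusted p = 0.0835). *Egfl7* was called higher (1.82, adjusted p = 0.0175), and was not with position adjustment (0.92, adjusted p = 0.0892), nor was any endothelial marker called higher without 1G11-mock replicate 2 or 3 or without 1G11-SOD3 replicate 1 or 2. Of 9 fibroblast and mural markers 5 were called higher in 1G11-SOD3 cells (*Acta2*, *Col1a1*, *Col1a2*, *Lum* and *Pdgfrb*, with 3 called without 1G11-mock replicate 2 or 3) and 0 lower. Their summed level was 14.39 to 15.14 on mock and 15.37 to 17.42 on SOD3 arrays. The 17.42 was on 1G11-SOD3 replicate 3, where *Dcn* stood at 17.05. On the other SOD3 arrays *Dcn* gave 13.51 and 13.59, below the 14.04 to 14.78 of the mock arrays. *Dcn* was not called (0.29, adjusted p = 0.905). *Col1a2* and *Lum* were above background on 0 of 3 mock arrays and 3 of 3 SOD3 arrays. Epithelial markers summed to 16.06 to 16.78 on mock and 15.80 to 16.47 on SOD3 arrays, most of it from *Krt19*, while *Epcam* was not above background on any array. *Krt14*, encoding a basal keratin, was called higher in 1G11-SOD3 cells by 4.82 (adjusted p = 7.23e-05), with its spot in the middle, and by 2.20 with position adjustment (adjusted p = 0.00146). Leukocyte markers summed to 14.15 to 14.62 on mock and 14.28 to 14.61 on SOD3 arrays, most of it from *Itgam*. Of these 8 markers 3 (*Itgam*, *Cd3e* and *Csf1r*) were well above background on all 6 arrays, and 5, *Ptprc* among them, on none. The part of these levels in the falls of *Cdkn2a* and *Cdkn1a* was not tested.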

How the data were processed

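RNA of 3 samples per line was hybridized to 6 Agilent SurePrint Mouse G3 arrays (1 color). Per the file headers, the deposited scanner output holds the mean and median pixel intensity and local background intensity of each spot, not normalized, and a processed signal. A second file deposited by the authors holds log2 values, corrected with normexp (offset of 50) and quantile normalized, whose columns could be recomputed here with a deviation of at most 0.005 and have a median of 7.52 per array. Scanner software was Agilent Feature Extraction 10.7.3.1.

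Here mean intensities were corrected with normexp (offset of 50) on all spots, taken to log2, stripped of control spots and brought to equal quantiles (limma 3.58.1, R 4.3.3). Non-uniform spots and population outliers were left out, and copies of a probe were averaged. Lines were compared with lmFit and eBayes and Benjamini-Hochberg adjustment over 55681 probes. The number of arrays limits the precision, and an exact permutation test of 3 against 3 cannot go below p = 0.1 (two-sided). For listed genes the probe of highest mean was used. Probes were named through their RefSeq accession (27656 probes) or description (1589), and 26436 have no gene name here. Position adjustment took off a surface (mgcv 1.9.3, 21 by 9 basis functions) fitted to how each array deviated from the mean of the 6, with probes printed at least 10 times held out. It lowered the median SD of the difference among copies of 199 such probes from 0.42 to 0.17. On simulated data, limma called 27 and 26 of 50 probes shifted by -2 and 2, 45 and 48 of 50 shifted by -4 and 4, and 6 unchanged probes. The p-values measure the spread between these samples. Summed marker levels are log2 of summed linear intensities. Promoters came from a RefSeq table and were searched with Python 3.11.15 and pandas 2.3.3; figures used matplotlib 3.10.9 and numpy 2.4.6.

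The CDK inhibitors and the gene lists were chosen with earlier results of these data known. Named are all inhibitor probes, *Ccnd1*, *Ccnd2*, *Ccnd3*, *Cdk4*, *Cdk6*, *Cdk2*, *Ccne1*, *Rb1*, *Mdm2*, *Trp53* and *Mtap* whatever their values, up to 4 called genes per list with the largest difference, and the 5 genes closest to *Cdkn2a* and to *Cdkn1a*. Alternatives were other background correction, signal, scaling, filters, variance model and blocks, the deposited table, the middle of the array left out, and each array left out.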

Additional observations from a re-analysis of the deposited data

How the results depend on the processing

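The 4 *Cdkn2a* and *Cdkn1a* probes were called lower, and the number of inhibitor probes called lower outside the middle stayed at 4, under all 13 alternatives with all arrays and with each array left out. The number of probes called over the whole array, 1629 (63.8% of them higher), was 1056 without background correction, 11118 (10.8% higher) with the processed signal, 2598 (58.4% higher) with scaling to the 75th percentile, 842 (35.5% higher) with copies in the middle left out and 2581 (25.8% higher) with position adjustment. It ran from 775 to 1797 with an array left out, and it was 783 without 1G11-mock replicate 2, 775 without 1G11-SOD3 replicate 1, 1056 without 1G11-SOD3 replicate 2 and 848 without 1G11-SOD3 replicate 3. The processed signal and scaling to the 75th percentile moved the median difference of all probes to -0.52 and -0.33. The number of listed genes called, 19, ran from 8 (with copies in the middle left out) to 28 over the alternatives with all arrays. It ran from 11 (without 1G11-mock replicate 2 or 1G11-SOD3 replicate 1) to 20 with an array left out. For these changes the cause was not tested, except that leaving out the middle leaves fewer probes.

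Differences that were not called changed sign as follows. With the processed signal the log2 difference was 0.44 for *Cdkn1b*, 0.0598 for *Cdkn2b* probe 2, 0.12 for *Cdk4*, 0.51 for *Ccnd2* and 0.23 for *Mtap*; with scaling to the 75th percentile it was 0.0208 for *Cdkn1b*, 0.0681 for *Cdkn2d* and 0.12 for *Mtap*; with cyclic loess it was 0.0918 for *Mtap*; and with position adjustment it was 0.12 for *Cdkn1b*, 0.0260 for *Cdkn1c* (at background level), 0.20 for *Ccnd2* and 0.19 for *Mtap*. With an array left out the difference ran from -0.52 to 0.29 for *Cdkn1b*, from -0.36 to 0.30 for *Cdkn2d*, from -0.0329 to 0.66 for *Trp53*, from -0.25 to 0.29 for *Cdk2*, from -0.49 to 0.41 for *Mtap* and from -0.53 to 0.0368 for *Cdk4*. Whether the replicate number pairs the samples was not settled here, and the main fit treated them as unpaired. Deviations from the line means correlated between arrays of the same number at 0.17, 0.22 and 0.09 (replicates 1, 2 and 3). Between arrays of different numbers they correlated at -0.14 to -0.03, so that each array correlated best with its own number. With the replicate number as a block 2252 probes, the same number of 4 inhibitor probes lower and 23 listed genes were called, *Mdm2* being called lower in addition (adjusted p = 0.0114). *Cdkn1c* and *Cdkn2a* probe 2 on the 1G11-SOD3 arrays were limited by signal over background.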
